A study of Mus musculus with 3 samples.

Results

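The nuclear genes of the mitochondrial respiratory chain and ATP synthase were chosen by symbol and chromosome, with no measured value: protein-coding RefSeq genes of GRCm38 on chromosomes 1 to 19 and X whose symbols begin with Nduf, Uqcr, Cox4 to Cox8 or Atp5, together with Sdha, Sdhb, Sdhc and Sdhd. The rule found 96 genes of 21887 protein-coding nuclear genes. Of these 96, 47 belong to complex I, 4 to complex II, 8 to complex III, 20 to complex IV and 17 to complex V. The study profiled open chromatin by ATAC-seq, in which a transposase cuts and tags accessible DNA, in the apical part of first molars of C57BL/6 mice. All mice carried the floxed Arid1a alleles (Arid1a fl/fl), without the driver in 2 control libraries and with Gli1-CreER in 1 mutant library, where the recombinase is made by cells that express Gli1. Tamoxifen, which activates CreER, was injected on postnatal day 3.5 and the teeth were taken on day 7.5, with 5000 cells of each group, per the labels' protocols, which do not say how many animals were pooled. The deposited values are 1 list of 13500 windows of 201 bp for all libraries together, with 5753 sites of the motif of the zinc finger factor Plagl1 (Zac1) in them. No window has a level per library. Mutant and control were therefore not compared, and the tissue label was not checked against marker genes. Read depth is unknown, and the values below carry no replicate error.

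Oxidative phosphorylation takes place in the inner mitochondrial membrane. Complex I (NADH dehydrogenase) and complex II (succinate dehydrogenase) pass electrons to ubiquinone, complex III hands them to cytochrome c, complex IV (cytochrome c oxidase) delivers them to oxygen, and complex V uses the resulting proton gradient to make ATP. Most subunits are encoded in the nucleus and the remainder in mitochondrial DNA, so both genomes have to supply matching parts. The promoters of the nuclear genes are known for binding sites of nuclear respiratory factor 1 (NRF1, gene Nrf1), of GABPA, an ETS family factor once named nuclear respiratory factor 2, and of YY1. Several complex IV subunits exist as a common form and as a form of muscle, testis or lung.

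The windows at the ends of these genes held 32 Plagl1 motif sites. The 10 with a deposited score (HOMER's log-odds match to the motif) of at least 6 are shown from the highest score down, because they are the closest matches to the motif among these sites. Each is written 5′ to 3′ on its motif strand, and capitals mark positions 4 to 7, the core of the motif.
Ndufb11: taaGAGGccc
Ndufa12: tagGAGGccc
Uqcrh: cgaGAGGccc
Cox4i1: aacGGGGccc
Ndufb6: catGAGGccg
Ndufa1: tgtGGGGgcc
Ndufa6: cagGAGGcac
Ndufaf6: cctGAGGcca
Atp5o: tgtGAGGccg
Cox7c: agtGAGGctc
The first has its centre at -6 bp from the annotated start of Ndufb11, an accessory subunit of complex I (negative values are upstream), at chrX:20617621-20617630 on the minus strand (score 7.48). The next lies 76 bp downstream of the start of Ndufa12, another accessory subunit, at chr10:94199107-94199116 on the minus strand (score 7.20). The third lies at -619 bp from the start of Uqcrh, the hinge protein of complex III, at chr4:116075685-116075694 on the plus strand (score 6.75). Its window also lies within 1 kb of an end of the neighbouring gene Lrrc41. The fourth is at Cox4i1, the common form of a complex IV subunit, at chr8:120668280-120668289 on the minus strand (score 6.52). The remaining 6 of the 10 score from 6.03 (Cox7c) to 6.39 (Ndufb6, in a window at the gene's finish). Of these 10 sequences, those of Cox4i1 and Ndufa1 carry GGGG in the core and the others GAGG.

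The promoters of 8 members are shown beside their windows, which are shorter and cover only a stretch of them or, at Cox8b, none. The sequences run from 250 bases before to 50 after an annotated start, 5′ to 3′ on the gene's strand, from RefSeq's GRCm38.p6. Capitals mark a deposited Plagl1 site or a match to 1 of 3 motifs searched on both strands: GCGCANGCG for NRF1, CCGGAAG for ETS factors and AAGATGGCG for YY1. Positions are counted with the annotated start as 0. Among the sites in windows at gene ends, Ndufb11, Cox7a2l and Atp5l hold the highest-scoring that falls within a promoter in complexes I, IV and V. The others were chosen after their values were seen: Sdhd and Atp5j for a window shared with a neighbouring gene, Uqcr11 for complex III, and Cox8a with Cox8b as a pair of isoforms of which the first had a window and the second had none.
Ndufb11: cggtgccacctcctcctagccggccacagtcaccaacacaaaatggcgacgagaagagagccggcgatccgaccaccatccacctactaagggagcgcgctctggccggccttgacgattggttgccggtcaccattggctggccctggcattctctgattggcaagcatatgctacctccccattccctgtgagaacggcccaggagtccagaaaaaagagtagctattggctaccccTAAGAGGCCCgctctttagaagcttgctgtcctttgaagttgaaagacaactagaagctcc
Cox7a2l: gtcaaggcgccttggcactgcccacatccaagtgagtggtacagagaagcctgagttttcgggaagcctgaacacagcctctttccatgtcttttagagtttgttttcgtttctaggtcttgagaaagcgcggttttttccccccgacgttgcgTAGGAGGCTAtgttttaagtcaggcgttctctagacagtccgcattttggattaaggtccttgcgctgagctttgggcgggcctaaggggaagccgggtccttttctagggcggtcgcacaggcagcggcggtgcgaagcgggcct
Atp5l: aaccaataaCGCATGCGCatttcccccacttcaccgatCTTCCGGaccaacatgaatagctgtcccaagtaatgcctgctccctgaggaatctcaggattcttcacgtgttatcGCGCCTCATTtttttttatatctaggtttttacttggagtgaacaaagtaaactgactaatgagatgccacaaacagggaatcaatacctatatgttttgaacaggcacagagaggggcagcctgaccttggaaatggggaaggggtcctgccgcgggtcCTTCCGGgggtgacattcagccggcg
Sdhd: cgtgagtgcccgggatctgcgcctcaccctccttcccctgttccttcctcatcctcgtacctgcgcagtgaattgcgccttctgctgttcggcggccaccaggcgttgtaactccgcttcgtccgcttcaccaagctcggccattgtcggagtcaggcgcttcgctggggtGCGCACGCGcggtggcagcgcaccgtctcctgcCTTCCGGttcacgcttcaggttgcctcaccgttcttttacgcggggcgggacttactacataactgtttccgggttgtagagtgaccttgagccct
Uqcr11: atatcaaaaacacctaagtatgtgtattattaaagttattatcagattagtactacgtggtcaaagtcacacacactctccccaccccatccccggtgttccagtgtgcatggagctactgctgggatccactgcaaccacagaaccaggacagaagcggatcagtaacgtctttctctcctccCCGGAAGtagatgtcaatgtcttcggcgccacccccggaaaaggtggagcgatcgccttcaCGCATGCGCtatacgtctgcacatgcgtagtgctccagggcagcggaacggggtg
Cox8a: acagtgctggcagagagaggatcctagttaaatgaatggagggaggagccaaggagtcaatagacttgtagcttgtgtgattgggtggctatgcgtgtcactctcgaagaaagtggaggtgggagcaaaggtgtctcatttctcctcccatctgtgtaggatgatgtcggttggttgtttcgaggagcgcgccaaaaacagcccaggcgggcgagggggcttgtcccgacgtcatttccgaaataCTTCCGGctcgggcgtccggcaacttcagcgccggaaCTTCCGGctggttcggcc
Cox8b: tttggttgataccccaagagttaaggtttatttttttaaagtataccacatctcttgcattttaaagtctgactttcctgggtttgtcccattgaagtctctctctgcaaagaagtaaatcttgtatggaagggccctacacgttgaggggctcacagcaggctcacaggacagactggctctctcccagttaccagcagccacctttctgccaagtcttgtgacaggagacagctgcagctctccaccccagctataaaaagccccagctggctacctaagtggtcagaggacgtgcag
Atp5j: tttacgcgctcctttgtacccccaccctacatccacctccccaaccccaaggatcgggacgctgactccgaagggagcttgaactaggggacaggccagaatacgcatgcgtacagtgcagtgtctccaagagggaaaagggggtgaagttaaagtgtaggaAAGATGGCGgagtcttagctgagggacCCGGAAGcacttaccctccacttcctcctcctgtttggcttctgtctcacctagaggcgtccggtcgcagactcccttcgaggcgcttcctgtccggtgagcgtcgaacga
In the promoter of Ndufb11 (chrX:20617570-20617869, minus strand) the capitals are the Plagl1 site at -11 to -2, inside the window, which spans -61 to 139. In that of Cox7a2l, classed here as an assembly factor of complex IV (chr17:83514284-83514583, minus strand), they are a Plagl1 site at -96 to -87, also inside the window. The promoter of Atp5l, a membrane subunit of complex V (chr9:44920693-44920992, minus strand), carries an NRF1 match at -241 to -233, ETS matches at -212 to -206 and at 24 to 30, and a Plagl1 site at -136 to -127. Its window spans -239 to -39, so the NRF1 match lies only partly in it and the ETS match downstream of the start lies outside. That of Sdhd, a membrane anchor of complex II (chr9:50603800-50604099, minus strand), has NRF1 at -79 to -71 and ETS at -46 to -40, both in the window. Uqcr11, a small subunit of complex III (chr10:80406772-80407071, minus strand), has ETS at -66 to -60 and NRF1 at -5 to 3, again in the window. Cox8a, the common form of subunit VIII of complex IV (chr19:7217567-7217866, minus strand), has ETS matches at -5 to 1 and at 32 to 38, both in the window, with 19 CpG dinucleotides in 300 bases. Cox8b, its muscle form (chr7:140900397-140900696, minus strand), has none of these matches and 2 CpG. Atp5j, the coupling factor subunit of complex V (chr16:84834927-84835226, minus strand), has YY1 at -88 to -80 and ETS at -61 to -55, and both lie outside its window, which spans -332 to -132.

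Most respiratory chain genes had an open chromatin window. A window whose midpoint lay within 1 kb of either end of the gene was present for 79 of 96 genes (82.3%, exact Clopper-Pearson 95% interval 73.2 to 89.3), beside 46.6% of all protein-coding genes. The interval covers counting error only. The difference was not tested, since the genes are no replicates. Of the 17 genes without such a window, 4 had one at an annotated start that lies inside the gene's outer limits. It lay 22 bp downstream of the start for Cox5a, a matrix-side subunit of complex IV, and 53 bp downstream for Cox7a2, the common form of subunit VIIa. It lay 9 bp upstream for Atp5d, the delta subunit of complex V, and 173 bp downstream for Atp5g3, a gene of the c subunit that forms the rotor ring. With windows at an annotated start counted as well, 83 of 96 genes (86.5%) had a window, beside 50.7% of all protein-coding genes.

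**Figure D1:**
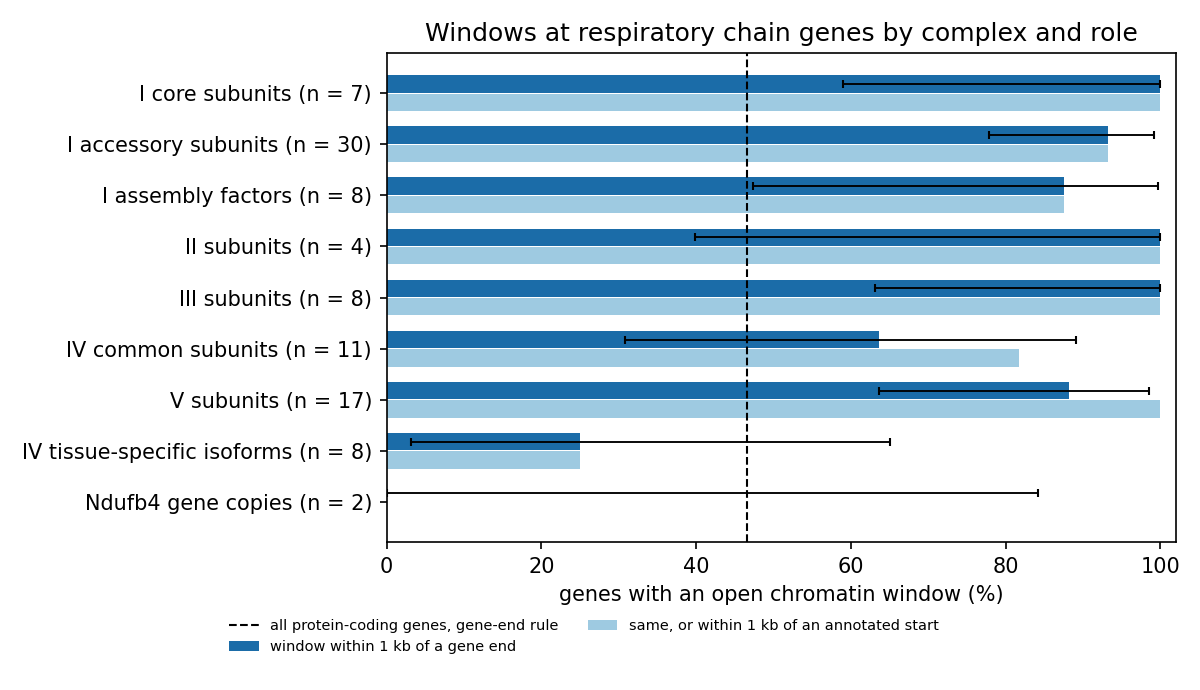
Share of genes with a window (x axis, percent) by complex and role (y axis, with the number of genes); dark bars count windows within 1 kb of a gene end with exact 95% intervals, light bars also those within 1 kb of an annotated start, and the dashed line is the 46.6% of all protein-coding genes. The core subunits of complex I and the subunits of complexes II and III stand at 100%, the tissue-specific isoforms of complex IV at 25%; Cox7a2l, a single gene, is not drawn.

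In complex I, all 7 core subunits of nuclear origin had a window (exact 95% interval 59.0 to 100%). These subunits hold the flavin and the iron-sulphur clusters that carry the electrons. Their windows lay 34 bp from a gene end at Ndufv1, 28 bp at Ndufv2 and 66 bp at Ndufs3, for example. Of the accessory subunits, which surround the core and stabilise it, 28 of 30 had one (93.3%, interval 77.9 to 99.2). The exceptions were Ndufa9 and Ndufs4. Ndufs4, loss of which in mice is a model of Leigh syndrome, had its nearest window 276536 bp from a gene end, next to Arl15. Ndufa9 had its nearest 90499 bp away. Of the assembly factors, which help to build the complex and are no part of it, 7 of 8 had a window (87.5%, interval 47.3 to 99.7). Ndufaf1 was the exception, with its nearest window 12323 bp away. Ndufb4b and Ndufb4c, whose symbols mark them as relatives of the accessory subunit Ndufb4, had no window, while Ndufb4 had one 71 bp from its end.

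Complexes II and III were covered in full. The window of Sdhb, the iron-sulphur subunit of succinate dehydrogenase, had its midpoint 3 bp from the gene end, that of Sdhd also 3 bp, and that of the flavoprotein subunit Sdha 34 bp. The anchor subunit Sdhc had 2 windows, at 53 and 337 bp from a gene end. All 8 complex III genes had a window, 35 bp from the end of the core protein gene Uqcrc2, 200 bp for its partner Uqcrc1, 105 bp for the Rieske iron-sulphur protein Uqcrfs1, and 706 bp for Uqcrh.

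In complex V, 15 of 17 genes had a window at a gene end (88.2%, interval 63.6 to 98.5) and all 17 when annotated starts are counted. Atp5b, the catalytic beta subunit, had its window 9 bp from the gene end, Atp5c1 and Atp5e of the central stalk 51 and 68 bp, and Atp5a1, the alpha subunit, 291 bp. Of the genes that encode the same c subunit, Atp5g1 and Atp5g2 had windows at 79 and 17 bp, while Atp5g3 had its window at an annotated start only.

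Complex IV had the lowest share, with 10 of 20 genes (50%, interval 27.2 to 72.8). Within it, 7 of 11 common subunits (63.6%, interval 30.8 to 89.1; 9 with annotated starts) and 2 of 8 tissue-specific isoforms (25%, interval 3.19 to 65.1) had a window. The families of isoforms show this gene by gene. Cox4i1 had a window 29 bp from its end and its lung isoform Cox4i2 had none, the nearest lying 1571 bp away at Bcl2l1. Cox6a1 had one at 53 bp and its heart and muscle form Cox6a2 none within 31908 bp. Cox8a had one at 26 bp, whereas the nearest to the muscle form Cox8b was 8356 bp away and the nearest to the testis form Cox8c 21012 bp away. Ndufa4, named for complex I but now counted in complex IV, had one at 108 bp, and its hypoxia-induced relative Ndufa4l2 none within 104603 bp. This order did not hold in every family. Cox6b1 and its testis form Cox6b2 both had a window, at 3 and 112 bp. The muscle form Cox7a1 had one at 47 bp, beside the window of Cox7a2 at an annotated start. Neither Cox7b nor its testis form Cox7b2 had one, with the nearest 3913 and 619797 bp away, and the common subunit Cox6c had its nearest 4765 bp away.

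In all, 13 genes had no window at an end or an annotated start: 4 common subunits (Ndufa9, Ndufs4, Cox6c and Cox7b), 1 assembly factor (Ndufaf1), and 8 isoforms or copies (Cox4i2, Cox6a2, Cox7b2, Cox8b, Cox8c, Ndufa4l2, Ndufb4b and Ndufb4c). None of the sources used here says how the regions of the list were selected, and open chromatin at these genes could have been left off the list. The genes nearest to the 1 kb limit on the inside were Ndufa13 (811 bp, with a further window at 582 bp), Uqcrh (706 bp) and Atp5j (649 bp), besides a second window of Ndufb6 at 849 bp. On the outside they were Atp5g3 (1311 bp) and Cox4i2 (1571 bp).

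The windows lay at the starts of the genes. Strand was available for 69 of the 82 pairs of a gene and a window, and in 68 of them the nearer end was the start (98.6%), beside 95.1% of such pairs over all protein-coding genes. The exception was the second window of Ndufb6, at its finish and within 1 kb of Topors and Smim27. The midpoint was a median of 71 bp from the nearest annotated start, in either direction, beside 119 bp over all genes. It was within 100 bp of the start in 42 of 69 pairs (60.9%), beside 43.8% over all genes. The signed median was -14 bp, that is upstream, with quartiles of -57 and 71 bp, beside a median of 43 bp downstream over all genes (quartiles -73 and 149 bp). Ndufa11 (504 bp upstream) and Uqcrh (706 bp upstream) stood farthest from their starts among the windows within 800 bp.

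**Figure D2:**
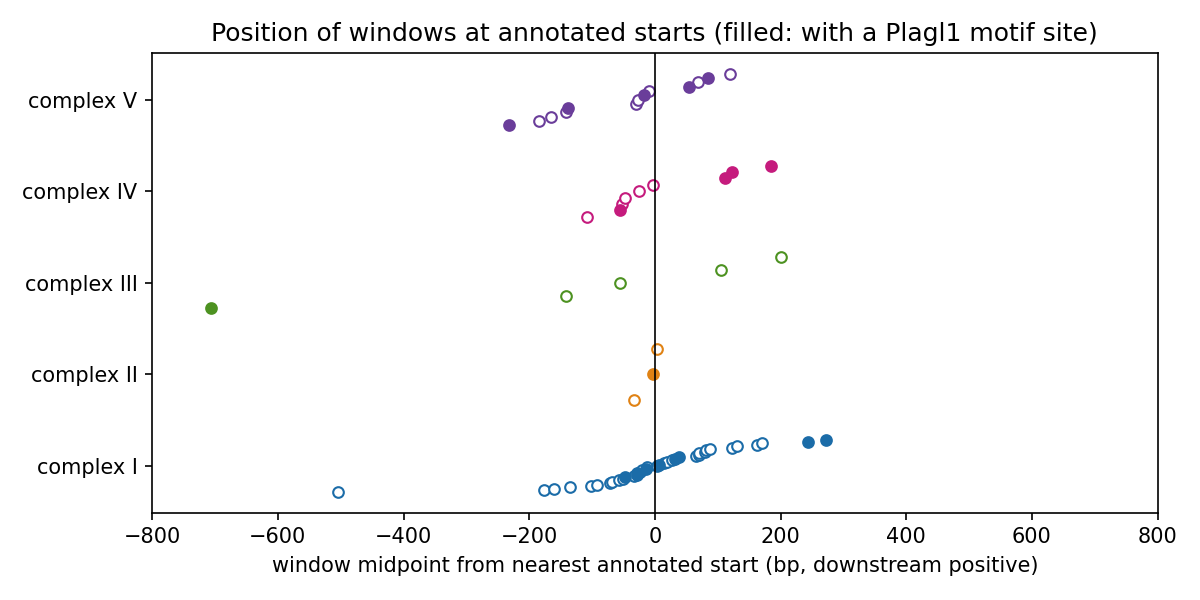
Midpoint of each window relative to the nearest annotated start (x axis, bp, downstream positive), by complex (y axis); filled points hold a Plagl1 motif site, open points do not, and 2 pairs beyond 800 bp are not drawn. Most points lie within 100 bp of the start (42 of 69).

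The windows at respiratory chain genes were lower in G and C than gene-end windows at large. Their GC content ran from 35.8% to 77.6% with a median of 62.2% over 82 windows, beside a median of 68.2% over the 9078 windows at ends of protein-coding genes. It was below that 68.2% in 70 windows, equal in 1 and above it in 11. CpG dinucleotides per 100 steps between neighbouring bases had a median of 8.0, with a range of 1.5 to 16.5, beside 10.0 over the 9078. By complex, the median GC content was 62.4% in complex I, 60.7% in complex II, 61.2% in complex III, 59.0% in complex IV and 65.2% in complex V, each below 68.2%. The 11 windows above were those of Atp5h (77.6%), Ndufab1 (77.1%), Ndufv2 (76.6%), Cox4i1 (75.6%), Ndufa13 (75.1%), Uqcrh (73.1%), Ndufb2 (72.6%), Uqcrfs1 (70.1%), Ndufaf6 (69.7%), Atp5a1 (69.2%) and Atp5c1 (68.7%). Ndufab1 is the acyl carrier protein that complex I shares with mitochondrial fatty acid synthesis. The lowest were Uqcr10 of complex III (35.8%, 3 CpG in the window), Atp5l (42.3%, 6 CpG) and Ndufb11 (47.3%, 4 CpG). In complex II the highest was Sdha (67.2%) and the lowest the nearer window of Sdhc (51.2%), and in complex IV the lowest was Ndufa4 (53.2%). The isoform windows stood at 54.2% (Cox7a1) and 57.7% (Cox6b2) with 7 CpG each. No test was made, since windows of 1 list are no replicates.

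**Figure D3:**
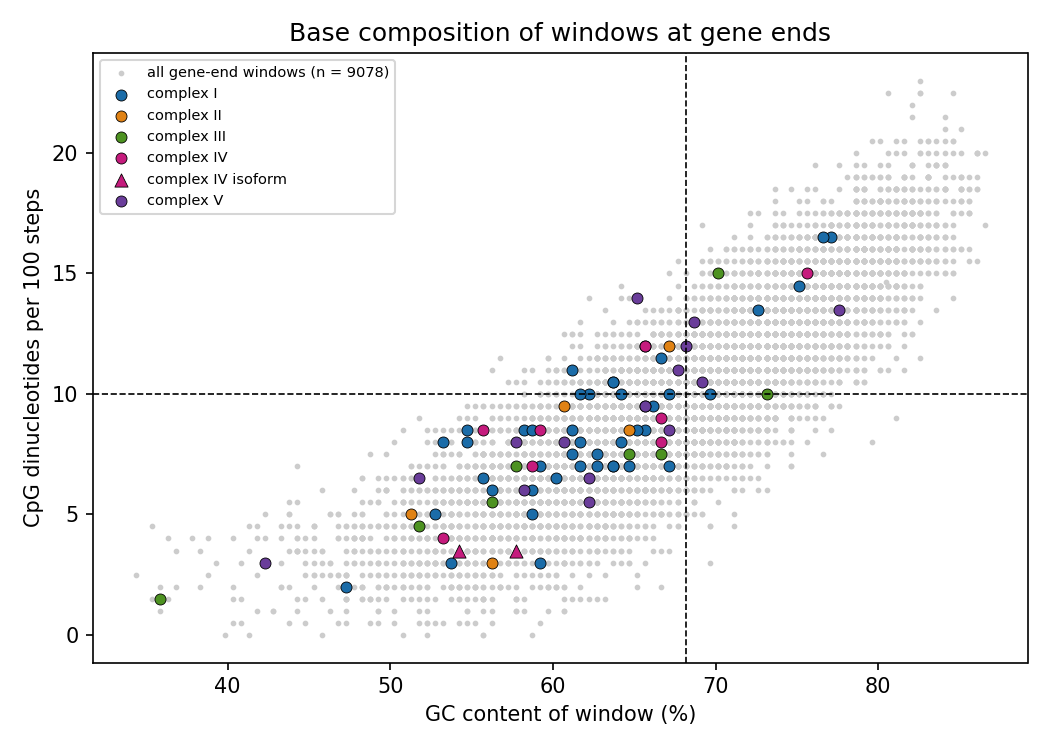
GC content (x axis, percent) against CpG dinucleotides per 100 steps (y axis) for all 9078 windows at ends of protein-coding genes (grey) and for the respiratory chain windows, coloured by complex, with triangles for the isoforms Cox7a1 and Cox6b2; dashed lines are the medians of the grey points, 68.2% and 10.0. Of the 82 coloured points, 70 lie left of the GC median.

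Many of these windows also lay near the end of a neighbouring gene. In 41 of 82 pairs of a respiratory chain gene and a window (50%), the window also lay within 1 kb of the end of another protein-coding gene, beside 27.9% of all such pairs. Strands were available for both genes in 31 of the 41 pairs, and in 28 of the 31 (90.3%) the genes stood head to head, beside 72.8% over all genes. Head to head means that the near ends of both genes are their starts, at most 1 kb apart, with transcription running away from each other. By complex, the shared windows were 25 of 44 in complex I, 3 of 5 in complex II, 4 of 8 in complex III, 3 of 10 in complex IV and 6 of 15 in complex V. Some partners also serve mitochondria: Timm8b, a chaperone of protein import, stood head to head with Sdhd, and the mitochondrial ribosomal protein genes Mrpl47 and Mrpl36 with Ndufb5 and Ndufs6. Gabpa, which encodes the ETS factor GABPA named above, shared the window of Atp5j at chr16:84835108-84835308. Others belong to general processes, such as Rps28 of the cytosolic ribosome beside Ndufa7, the polyadenylation factor Cpsf2 beside Ndufb1, the splicing regulator Rbm10 beside Ndufb11, and the repair gene Ercc8 beside Ndufaf2. The shared windows had a median GC content of 61.2% and the unshared of 64.7%, beside 65.2% and 68.7% over all genes, so the respiratory chain windows were lower in both classes. For 14 of the 79 genes, every window at the gene was nearer to the end of another gene. With windows counted for their nearest gene end alone, 67.7% of the respiratory chain genes had one, in place of 82.3%. Over all protein-coding genes the share was 41.1%, in place of 46.6%.

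Sites of the Plagl1 motif were about as frequent as at other genes. Of the 79 genes with a window, 28 had a site in it (35.4%, exact 95% interval 25 to 47), beside 33.4% of all protein-coding genes with a window. A site is a match of letters and no measurement of binding. Genes with a site numbered 14 of 42 in complex I, 1 of 4 in complex II, 2 of 8 in complex III, 5 of 10 in complex IV and 6 of 15 in complex V. The exact 95% intervals run from 19.6 to 49.5% in complex I and from 0.631 to 80.6% in complex II. Counts this small cannot tell a complex apart from the 33.4%. In a logistic model of site presence on GC and CpG content over all 13500 windows, 22.9 of the 82 respiratory chain windows were fitted to hold a site and 28 did, a ratio of 1.22 (interval 0.860 to 1.63, from the exact 95% interval of the share), beside 0.990 over all gene-end windows. The 32 sites scored from 5.51 to 7.48 with a median of 5.86, beside a median of 5.94 over all 5753 sites. Scores of at least 6 made up 10 of 32 (31.2%), beside 43.1% of all sites. A rather than G at position 5 was found in 21 of 32 sites (65.6%), beside 44.8% of all sites. The 5753 sites include those in windows away from gene ends, and 3790 of them lie in gene-end windows. Scores and letters were not counted for the 3790 alone.

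Among the complex I genes with a site, the core subunits included Ndufs1 (score 5.64) and Ndufv2 (5.97). The accessory subunits, beside Ndufb11 and Ndufa12, were Ndufb6 (6.39), Ndufa1 (6.24 and 5.94), Ndufa6 (6.20), Ndufa13 (5.72), Ndufc2 (5.70) and Ndufa2 (5.65). The assembly factors were Ndufaf6 (6.05), Ndufaf4 (5.87) and Ndufaf2 (5.78). Sdhb (5.79) was the only complex II gene with a site, and in complex III they were Uqcrh and Uqcrq (5.71). In complex IV they were Cox4i1, Cox7c (6.03), the isoform Cox6b2 (5.95), Cox7a2l (5.78) and Cox5b (5.51), and in complex V Atp5o (6.05), Atp5mpl and Atp5l (5.97 each), Atp5k (5.84 and 5.71), Atp5g2 (5.79) and Atp5j (5.67). Among the windows at gene ends, those with 2 sites occurred at 4 genes, Ndufa1, Ndufa12 and Atp5k among them. In Ndufa12 and in Atp5k both sites overlap each other, so they are not separate matches. In all, 28 of these windows held 32 sites, beside 2975 windows with 3790 sites over all protein-coding genes. Windows at an annotated start alone are outside these counts: that of Atp5g3 held 5 sites and that of Cox7a2 held 1. With such windows included, 31 of 83 genes had a site (37.3%), beside 34% of all genes with a window. Where a start was annotated, 13 of 24 sites lay within 100 bp of it. The midpoints of the windows did so in 42 of 69 pairs of a gene and a window, and the share over all sites was not counted.

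**Figure D4:**
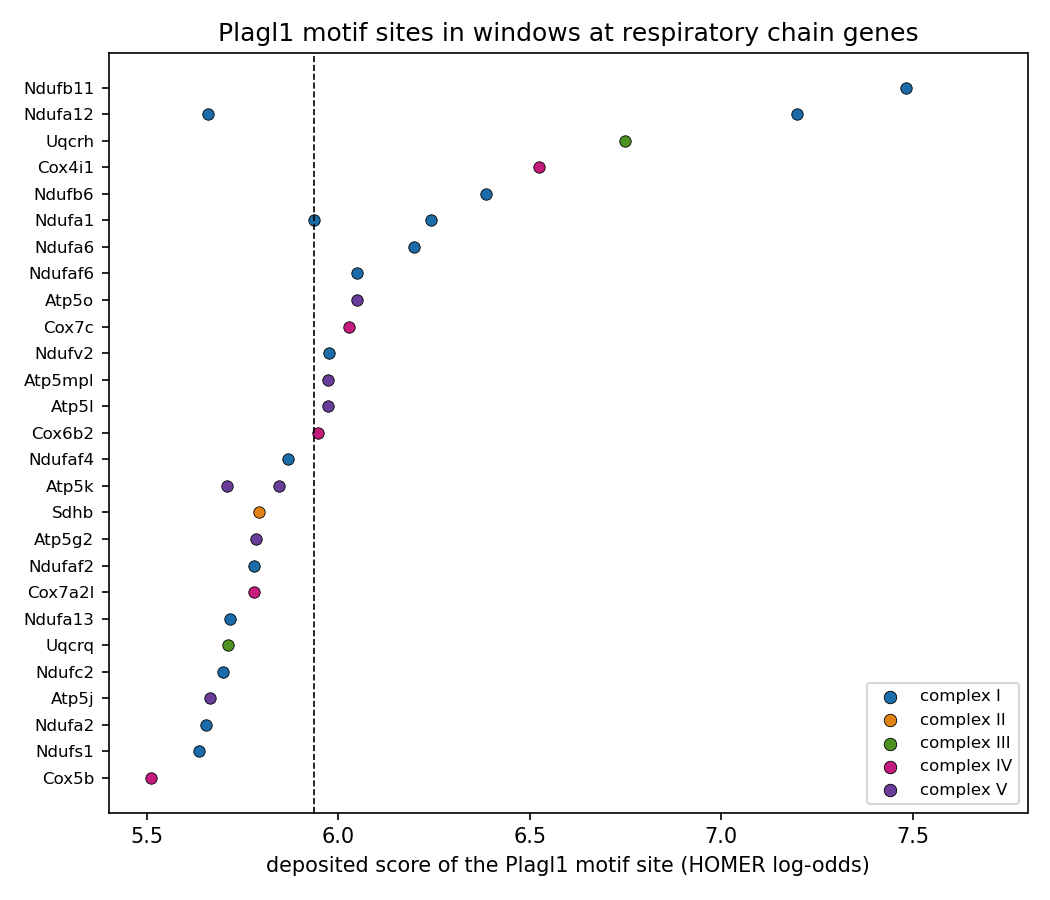
Deposited score of Plagl1 motif sites (x axis, HOMER log-odds) in windows within 1 kb of an end of the respiratory chain genes named in the text (y axis, ordered by the best score), coloured by complex. The dashed line is the median of all 5753 sites, 5.94. Ndufb11 (7.48) and Ndufa12 (7.20) stand at the top and Cox5b (5.51) at the bottom.

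The promoters of these genes were searched for the letters of known factors. RefSeq's promoter table matched 78 of the 96 genes and 17492 protein-coding genes in all. A gene counted when any of its promoters held the motif on either strand. The NRF1 motif, GCGCANGCG, was in the promoters of 22 of 78 respiratory chain genes (28.2%), beside 9.63% of all genes. The ETS motif, CCGGAAG, was in 19 (24.4%), beside 12.9%, and the YY1 motif, AAGATGGCG, in 8 (10.3%), beside 2.14%. With genes restricted to those with a window at an annotated start, the shares were 31.0% of 71 beside 17.1% for NRF1, 25.4% beside 21.9% for ETS and 8.45% beside 3.91% for YY1, so ETS stood near the other genes with a window. The SP motif, GGGCGG, the site of SP1 and its relatives, went the other way: 35 of 78 (44.9%) beside 49.2% of all genes, and 46.5% beside 74.2% among genes with a window. CCAAT, the site of NF-Y, was in 34 (43.6%) beside 42.3%, and in 43.7% beside 44.5% among genes with a window. TATAAA, the TATA box, was in 8 (10.3%) beside 14.8%, but in 8.45% beside 7.66% among genes with a window. TGACGTCA, the CREB site, was in 4 (5.13%) beside 2.54%, and in 5.63% beside 3.89% among genes with a window. TCAAGGTCA, a site of the estrogen-related receptors, was in 2 (2.56%) beside 0.377%, namely Sdhd and Atp5g3, and in 2.82% beside 0.305% among genes with a window. The motifs do not contain each other. GGGCGG, GCGCANGCG and CCGGAAG are rich in G and C. The shares were not adjusted for base composition, and its part in them was not tested. These counts are descriptions, and a match is not shown to be bound.

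The genes with an NRF1 match came from every complex. They included Ndufa5, Ndufa6, Ndufa8, Ndufb10, Ndufs5 and Ndufs6 of complex I with the assembly factors Ndufaf4 and Ndufaf5, Sdha and Sdhd of complex II, Uqcrc1 and Uqcr11 of complex III, Cox6a1 of complex IV, and Atp5c1, Atp5g2, Atp5g3, Atp5h, Atp5k, Atp5l and Atp5o of complex V. All 22 genes with an NRF1 match had a window at an annotated start, and none of the 7 genes with a promoter entry and no window held one. Over all protein-coding genes, 1517 of the 1684 with an NRF1 match had such a window, and 1.91% of the 8316 without a window held a match. Those 7 promoters (Ndufa9, Ndufs4, Ndufaf1, Ndufb4b, Cox7b, Cox7b2 and Cox8b) had a median GC content of 48.3% and 3.34 CpG per 100 steps, beside 59.3% and 6.69 in the 71 with a window at a start. Over all protein-coding genes the medians were 49.3% and 1.34 without a window, and 63.3% and 8.03 with one. Of the 7 respiratory chain promoters without a window, 2 held a YY1 match (28.6%), those of Ndufa9 and Ndufs4. The share was 0.337% of the 8316 genes without a window. An ETS match was in 1 of the 7 (14.3%), that of Ndufaf1, beside 3.69% of the 8316.

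**Figure D5:**
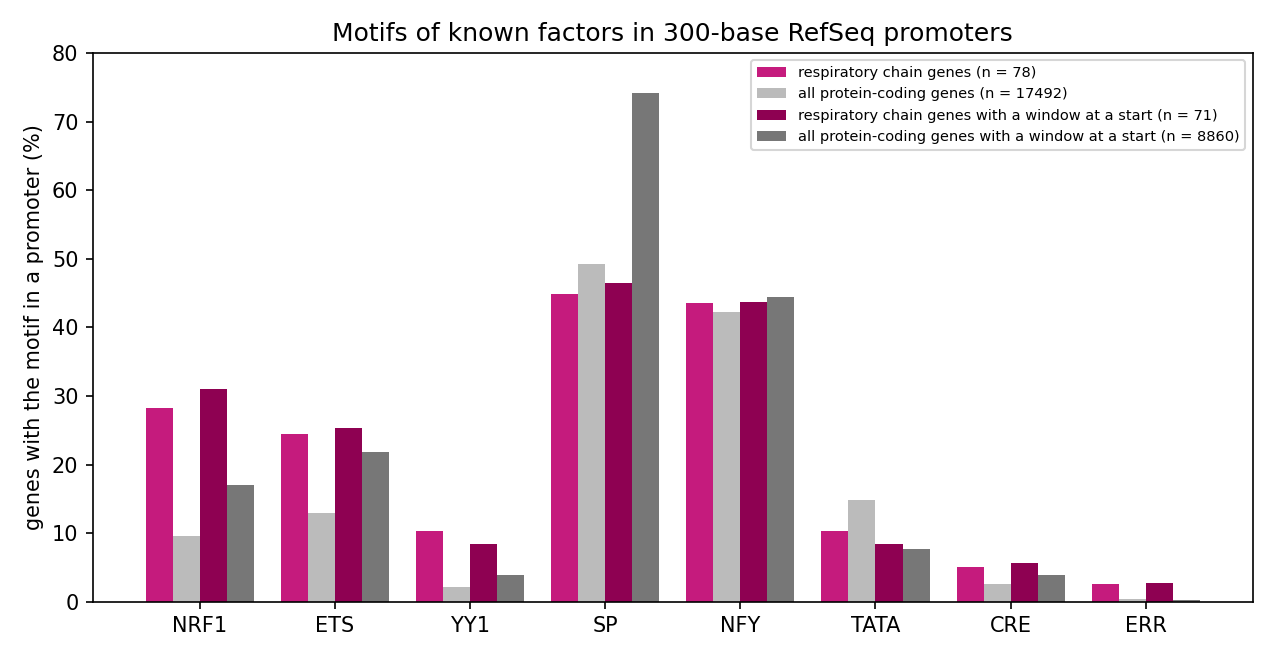
Share of genes with each motif in a promoter (y axis, percent), for all 78 respiratory chain genes and all 17492 protein-coding genes with a promoter entry, and for those with a window at an annotated start (71 and 8860). NRF1 stands at 28.2% beside 9.63% over all genes, and at 31.0% beside 17.1% among genes with a window. SP stands at 44.9% beside 49.2% over all genes, and at 46.5% beside 74.2% among genes with a window.

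Other genes that the respiratory chain depends on were also at windows. Of 52 genes outside the symbol rule, 50 had a window within 1 kb of a gene end (96.2%, exact 95% interval 86.8 to 99.5), again beside 46.6% of all genes. The other two, Atpaf2, an assembly factor of complex V, and Gabpb1, the partner of Gabpa, had one at an annotated start. All 20 assembly genes of complex IV had a window, among them Surf1, the copper chaperones Sco1, Sco2 and Cox17, and the haem synthesis genes Cox10 and Cox15. All 4 assembly genes of complex II had a window, and Sdhaf1 (best score 6.73), Sdhaf2 (6.46) and Sdhaf4 (6.06) had a Plagl1 site in it. A window was also present at Cyc1, the cytochrome c1 subunit of complex III that the symbol rule leaves out, and at Cycs, which encodes cytochrome c. Of the 50, 17 had a Plagl1 site in the window (34%), beside the same 33.4%. Among the regulators, Nrf1 (best score 6.54), Yy1 (6.82), Esrra (5.85) and Gabpa (5.67) had a site, and Tfam, the mitochondrial DNA packaging and transcription factor, and the co-activator Ppargc1a had none. The site of Gabpa is the same as that of Atp5j, in the window that these genes share, and is counted for both. These lists were put together with earlier results of these data known.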

How the data were processed

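The submitters' processing notes name mm10, MACS2 2.1.1, Bowtie2 2.3.5, cutadapt 1.18, FastQC 0.11.8, bedtools and Picard for the ATAC-seq reads of 3 libraries. Per the file headers, the authors ran HOMER's annotatePeaks on a union peak list with a single motif. The deposited GC value is a fraction of the window's bases, printed here as percent, and the CpG value is per step between bases, printed per 100. The deposited score is HOMER's log-odds score, with the log base not stated. Depth is unknown. Values per library were not used here.

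Genes came from RefSeq's GRCm38.p6, the assembly of mm10. The GC and CpG values of all 1543 windows lying inside a promoter sequence equalled those of the sequence within 0.001, as did the letters of all 1493 sites. Windows were assigned to every gene with an end at most 1 kb from the window's midpoint. Ndufa4 and Ndufa4l2 were placed in complex IV. The rule for named genes covers members without a window, with a site, with more windows or a shared window, and those of extreme GC content. It allows 2 promoters per complex, highest site score first. That order gave Ndufb11, Cox7a2l and Atp5l, with the site inside the promoter, while Sdhd, Uqcr11, Cox8a, Cox8b and Atp5j were chosen with values seen, which gives complex IV 3. The 18 members with no matching entry include Ndufs1, Sdhc, Cox4i2, Ndufaf6, Uqcrc2, Cox6a2, Cox4i1, Ndufa4l2, Uqcrq, Cox8c, Atp5mpl, Uqcrb, Cox6c, Ndufb9, Ndufb4c, Ndufa2 and Atp5a1. The values of 1 member are not reported here, though it is in the counts. The members and lists were chosen with earlier results of these data known. Assignment and model were tested on simulated data. Tools were pandas 2.3.3, scipy 1.17.1, matplotlib 3.10.9 and numpy 2.4.6 under Python 3.11.15. Alternatives changed the distance, the gene assignment, the score minimum and the model.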

Additional observations from a re-analysis of the deposited data

How the results depend on the processing

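With sites scoring at least 6 alone, 10 of 79 genes with a window held a site (12.7%, beside 16.3% of all genes), in place of 28. Genes with a window numbered 65 to 83 under the other settings, always of 96 except for the common subunits (69 of 77). The lowest count, 65 (67.7%, beside 41.1% of all genes), came when a window counted for its nearest gene end alone. At 500 bp 75 genes had a window and at 3 kb 82. Median GC content stayed between 62.2% and 63.7%, and CpG between 8.0 and 8.5. The ratio of observed to fitted windows with a site was 1.09 with GC alone, 1.26 from gene-end windows alone and 1.25 with squares and a product. Counting annotated starts was added after the data were seen. No paired analysis was possible because no value is given per library.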
